A study of Mus musculus with 16 samples.

Results

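The tumour necrosis factor (TNF) superfamily members examined here were all genes of the count table whose symbol is Tnfsf or Tnfrsf followed by a number, other than Tnfsf11, Tnfrsf11a and Tnfrsf11b. The rule gave 28 of 23420 genes, 10 ligands and 18 receptors. It used names and no measured value. RNA had been sequenced from sorted thymic epithelial cells of mice to ask how loss of Psmb11, which encodes the thymoproteasome subunit beta5t, changes them. The populations were cTEC from the cortex and, from the medulla, mTEClo and mTEChi, which carry little and much MHC class II, each from wild-type (WT) and psmb11-/- (KO) mice. There were 2 cTEC libraries per genotype and 3 of mTEClo and of mTEChi per genotype, 16 in all. All cells were sorted as CD45-negative and EpCAM-positive, cTEC as Ly51-positive and UEA1-negative and mTEC as Ly51-negative and UEA1-positive. The strain label of every group names a C57BL/6-derived BAC, and no further treatment is given for any group. The labels conflict on the animals, since the sample labels give 6 to 8 weeks and the series design that age and 11 thymi, while the extraction protocol gives 7 days and 14 mice. Whether replicates are separate animals is not stated, so p-values reflect only how far libraries of a group vary, which may be technical.

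TNF superfamily ligands are mostly trimeric membrane proteins that bind receptors with cysteine-rich domains on neighbouring cells. Most receptors without a death domain recruit TRAF adaptors and activate NF-kB, decoy receptors do not signal, and receptors with a death domain can also start apoptosis. In the thymic medulla the family is best known for RANK and CD40 signals that drive mTEC maturation. Most of the members described here are better known as costimulators of T cells, as survival factors of B cells or as death receptors.

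For 22 of the 28 members the RefSeq table for GRCm38.p6 held a promoter. The kappaB consensus, the sequence bound by NF-kB dimers, a motif of 10 bases with degenerate positions, was searched on both strands in the 250 bases upstream of each start. It was found for 2 members, Tnfrsf8 and Tnfrsf9, which were also the members with the highest level per gene length in WT mTEChi. Their upstream stretches are shown for that reason, 5′ to 3′ on the gene's strand, with the matching bases in capitals. The match begins 168 bases before the start of Tnfrsf8 (chr4:145315165-145315414, minus strand) and 43 bases before the second annotated start of Tnfrsf9 (chr4:150927749-150927998, plus strand), where 2 matches overlap.
Tnfrsf8: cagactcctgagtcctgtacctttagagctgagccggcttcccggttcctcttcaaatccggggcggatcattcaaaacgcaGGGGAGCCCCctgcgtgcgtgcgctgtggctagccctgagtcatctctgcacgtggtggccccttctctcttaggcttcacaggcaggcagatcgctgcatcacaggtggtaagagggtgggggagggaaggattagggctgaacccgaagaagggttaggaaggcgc
Tnfrsf9: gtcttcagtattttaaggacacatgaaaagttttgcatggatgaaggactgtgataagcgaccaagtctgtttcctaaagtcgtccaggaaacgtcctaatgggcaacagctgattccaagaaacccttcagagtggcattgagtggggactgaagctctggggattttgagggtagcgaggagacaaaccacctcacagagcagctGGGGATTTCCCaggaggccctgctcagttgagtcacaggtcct
Of members that were higher in WT mTEChi than in WT mTEClo, 2 of the 14 with a promoter held a match (14.3%), of members that were lower 0 of 6, and of all 27025 genes with a RefSeq promoter 4.46%. A match describes these letters and was not tested as a binding site.

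Gene counts per library ranged from 64753610 to 146707262. Psmb11 read 170.2 and 139 CPM (counts scaled to the library's size) in WT cTEC and 2.11 and 0 in KO cTEC. The log2 fold change of -7.19 (SE 1.15) missed the threshold on 4 libraries (adjusted p = 0.0855 by edgeR), while Psmb11 was lower in mTEClo (-2.93, adjusted p = 5.44e-04) and in mTEChi (-3.35, adjusted p = 2.43e-07). The biological coefficient of variation was 0.652 among cTEC libraries, 0.131 in mTEClo and 0.113 in mTEChi. Every comparison was therefore fitted on its own groups. The fits of cTEC against mTEC still used a shared spread per gene for both groups, so their SEs and calls mix the unequal spreads. The cTEC KO libraries stood apart from each other, with 5757 genes at 0 counts in replicate 1 and 8541 in replicate 2, of which 7 were members. Summed cortical markers without Psmb11 were 5300 to 6450 CPM in WT cTEC, 1920 to 2200 CPM in WT mTEClo and 1110 to 1150 CPM in WT mTEChi. Ctsl, the largest part of that sum in WT cTEC and WT mTEClo, averaged 3560 and 1820 CPM there. Of 9 cortical markers with Psmb11, all 9 were higher in WT cTEC than in WT mTEClo. Against WT mTEChi, 6 were higher and 2 lower in WT cTEC, and 6 were higher and 1 lower in WT mTEChi than in WT mTEClo. Summed medullary markers were 8430 to 9320 CPM in WT mTEClo. Their sum was 4710 to 5360 CPM in WT mTEChi and 3800 to 4270 CPM in WT cTEC. Of 11 medullary markers tested, 8 were higher and 3 lower in WT mTEChi than in WT mTEClo. Krt5, the largest part of that sum in WT mTEClo, averaged 5410 CPM there and 874 CPM in WT mTEChi. Aire, the medullary regulator of tissue-restricted genes, averaged 1520 ± 105 CPM in WT mTEChi (SD, n = 3) and ranged from 8.14 to 18.5 CPM in WT mTEClo, and Ccl21a was listed at 0 in every library. In these bulk libraries, fewer cells of a type and less RNA per cell cannot be told apart.

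Across the WT populations, 18 members had their highest mean in mTEChi, 7 in mTEClo and 3 in cTEC. In 17 of the 18 every mTEChi library lay above every other WT library, and the exception was Tnfrsf13b, the receptor TACI. The same held for all 7 mTEClo and all 3 cTEC members. Among KO libraries the highest mean lay in mTEChi for 17 members, in mTEClo for 6 and in cTEC for 5. These orders were not counted over all genes, of which 80.9% differed between WT mTEChi and WT mTEClo by the test below. They are therefore not shown to be a trait of this family. Levels were compared between genes only per gene length, by the authors' RPKM. Only symbols listed once there were used, which covered 27 members and not Tnfsf13. Tnfrsf1a, the ubiquitous TNF receptor with a death domain, ranked first in WT cTEC (84.6 ± 6.73 RPKM, SD, n = 2) and in WT mTEClo (73.5 ± 2.08 RPKM, n = 3) and at rank 5 in WT mTEChi (22.9 ± 0.572 RPKM). In WT mTEChi the order was led by Tnfrsf8 (37.5 ± 3.34 RPKM) and Tnfrsf9 (34.1 ± 1.87), whose ranges of mean ± SD overlapped, followed by Tnfrsf14 (27.0 ± 2.68) and Tnfsf9 (25.1 ± 3.31), which also overlapped. In WT mTEClo, Tnfrsf12a (46.4 ± 3.06 RPKM), Tnfsf10 (26.1 ± 0.976), Tnfsf12 (15.4 ± 1.10) and Tnfrsf14 (12.5 ± 1.11) followed Tnfrsf1a, and Tnfrsf14 overlapped with Tnfrsf21 (12.2 ± 0.433), the next in order. The authors' RPKM entry of Tnfsf12 spans 69686240 to 69686956 on chromosome 11, a small piece of the gene, so its rank rests on that piece.

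**Figure D1:**
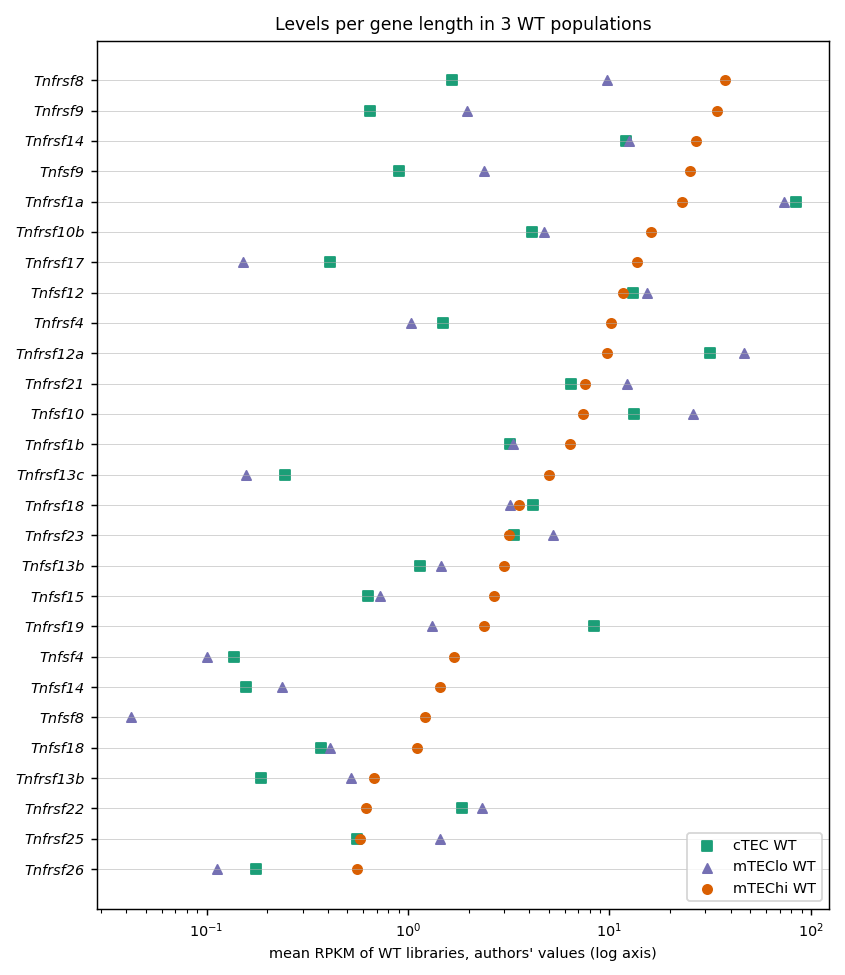
Mean RPKM of the WT libraries for 27 members (authors' values, log axis), with cTEC as squares (n = 2), mTEClo as triangles and mTEChi as circles (n = 3 each), ordered by mTEChi. Tnfrsf1a sits at 84.6 in cTEC and 22.9 in mTEChi, whereas Tnfrsf9 rises from 1.97 in mTEClo to 34.1 in mTEChi. Tnfsf8 is listed at 0 in cTEC and has no square.

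**Figure D2:**
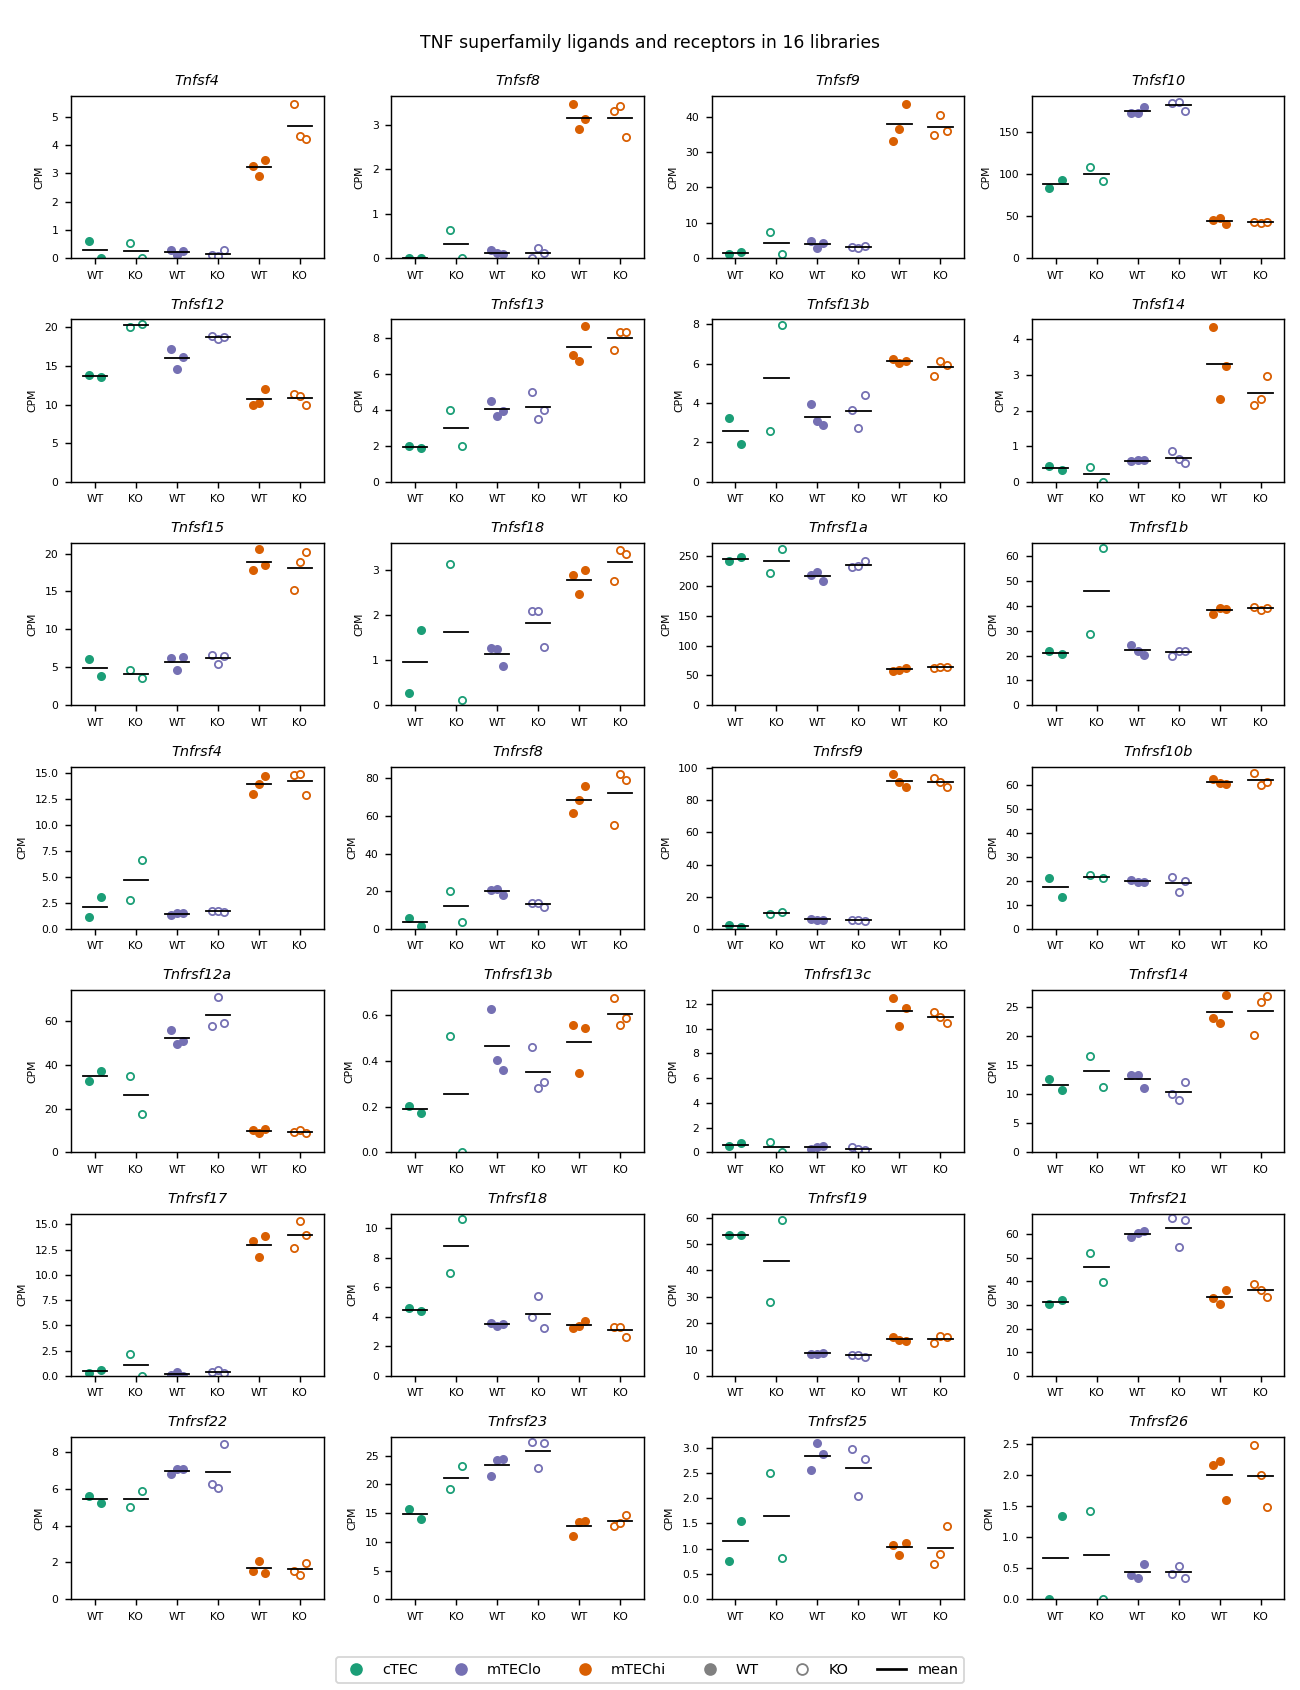
CPM of each member in each of the 16 libraries (linear axes from 0, scaled per member), with filled points for WT, open points for KO and a bar at the group mean. The mTEChi libraries stand above the rest for members such as Tnfsf9 and Tnfrsf9 and below the rest for Tnfsf10 and Tnfrsf1a, and the cTEC KO libraries are far apart for Tnfrsf8 and Tnfrsf1b.

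WT mTEChi and WT mTEClo differed in 26 of the 28 members, 18 higher and 8 lower in mTEChi, by edgeR's quasi-likelihood test with Benjamini-Hochberg adjustment over 19256 genes and a threshold of 0.05. Of all genes tested, 80.9% were called, so the share of members called is read against a background in which most genes differ. In mTEChi 64.3% of members and 43.0% of all genes were called higher, and 28.6% and 37.9% lower. At least 2-fold, a rule added after the data were seen, 13 members were higher and 5 lower (46.4% and 17.9%), against 32.2% and 12.3% of all genes. The median log2 fold change was 0.92 over the members and 0.06 over all genes. All 8 ligands other than Tnfsf10 and Tnfsf12 were higher. Scaling by library totals in place of TMM moved the median of all genes to 0.30 and their split from 8276 higher and 7302 lower to 9890 and 5311, while the members stayed at 18 and 8.

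**Figure D3:**
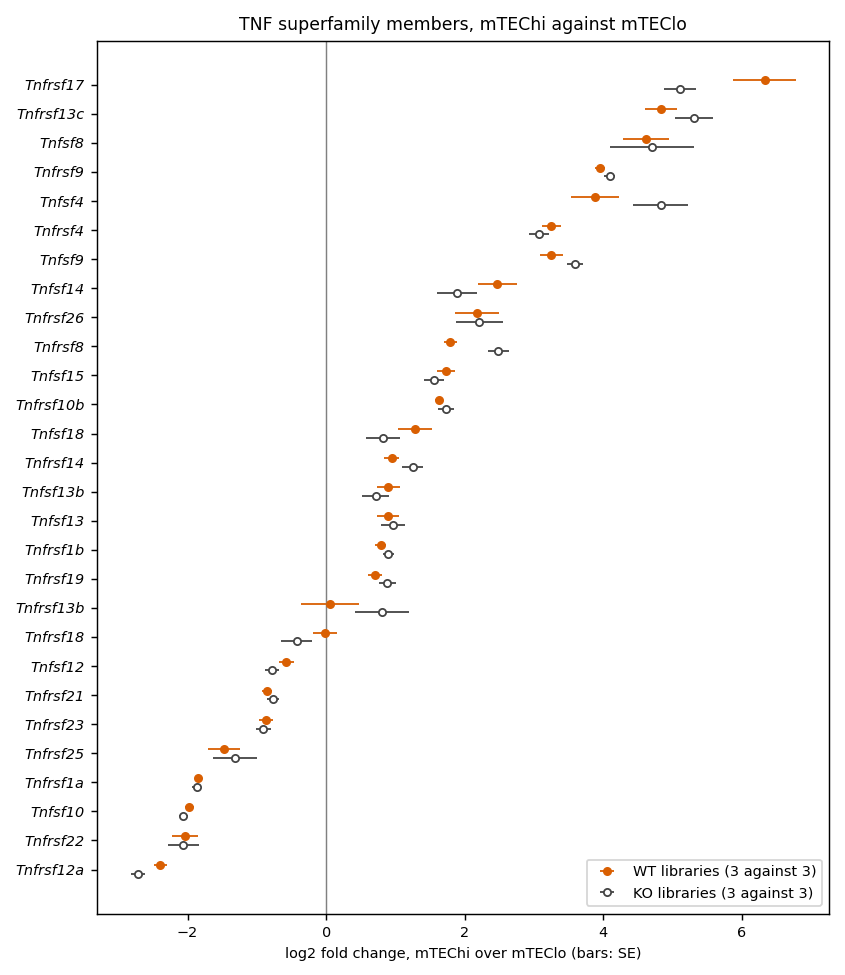
Log2 fold change of mTEChi over mTEClo for the 28 members, with filled points for WT libraries and open points for KO libraries (3 against 3 each) and bars for the SE. The 26 members called in WT run from Tnfrsf12a at -2.39 and Tnfrsf22 at -2.04 up to Tnfrsf13c at 4.83 and Tnfrsf17 at 6.33, and the KO points lie on the same side of 0.

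Several members form costimulatory pairs, ligands that antigen-presenting cells show to T cells and their receptors. In the pairs of 4-1BB, CD30, OX40 and HVEM both sides were higher in mTEChi, in that of GITR the ligand was higher and the receptor did not pass the test, and in that of DR3 the ligand Tnfsf15 was higher and the receptor Tnfrsf25 lower. Tnfrsf9, the T cell costimulatory receptor 4-1BB (CD137), read 96.3, 91.4 and 88.3 CPM in WT mTEChi, 6.33, 5.79 and 5.71 CPM in WT mTEClo and 2.69 and 1.11 CPM in WT cTEC. Its level in mTEChi lay far above the other populations in every library, with a log2 fold difference of 3.96 (SE 0.07, adjusted p = 5.13e-12) against mTEClo. Tnfsf9, the 4-1BB ligand, read 33.2, 36.4 and 43.7 CPM in WT mTEChi, 4.83, 2.92 and 4.19 CPM in WT mTEClo and 1.23 and 1.81 CPM in WT cTEC. The ligand had the same order of populations as its receptor, without overlap between them, and a log2 fold difference of 3.25 (SE 0.17, adjusted p = 5.71e-09) between the medullary populations. Both members of the pair were also lower in WT cTEC than in WT mTEClo, with log2 fold changes of -1.58 (SE 0.36) for Tnfrsf9 and -1.31 (SE 0.33) for Tnfsf9.

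Tnfrsf8, the activation receptor CD30 of lymphocytes, read 61.5, 68.5 and 75.9 CPM in WT mTEChi, 20.7, 21.2 and 17.7 CPM in WT mTEClo and 5.51 and 1.43 CPM in WT cTEC. The populations were in that order in every library, with a log2 fold difference of 1.79 (SE 0.09, adjusted p = 5.81e-09) for mTEChi over mTEClo and -2.45 (SE 0.46) for cTEC over mTEClo. Tnfsf8, the CD30 ligand, ranged from 2.90 to 3.48 CPM in WT mTEChi, from 0.0873 to 0.182 CPM in WT mTEClo and had 0 counts in both WT cTEC libraries. Against a floor of 3 counts over the 2 cTEC libraries, Tnfsf8 was at least 189-fold higher in mTEChi and at least 7.72-fold higher in mTEClo, bounds that cover counting error only.

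Tnfrsf4, the receptor OX40 of activated T cells, read 13.04, 13.99 and 14.8 CPM in WT mTEChi, 1.38, 1.51 and 1.505 CPM in WT mTEClo and 1.15 and 3.08 CPM in WT cTEC. It was higher in mTEChi with a log2 fold difference of 3.25 (SE 0.14, adjusted p = 8.26e-10), and the cTEC and mTEClo libraries overlapped. Tnfsf4, the OX40 ligand, read 3.27, 2.89 and 3.48 CPM in WT mTEChi, 0.296, 0.106 and 0.251 CPM in WT mTEClo and 0.604 and 0 CPM in WT cTEC. Only the mTEChi libraries were above 1 CPM among the WT libraries, with a log2 fold difference of 3.89 (SE 0.35, adjusted p = 7.99e-07).

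The pair of Tnfsf18 and Tnfrsf18, GITR ligand and the receptor GITR of regulatory T cells, was split. Tnfsf18 read 2.88, 2.45 and 2.98 CPM in WT mTEChi, 1.28, 1.25 and 0.873 CPM in WT mTEClo and 0.280 and 1.66 CPM in WT cTEC. It was higher in mTEChi than in mTEClo (log2 fold difference of 1.29, SE 0.25, adjusted p = 4.36e-04), while the cTEC libraries lay on both sides of mTEClo. Tnfrsf18 read 3.25, 3.35 and 3.73 CPM in WT mTEChi, 3.61, 3.34 and 3.501 CPM in WT mTEClo and 4.599 and 4.38 CPM in WT cTEC. The medullary populations overlapped and did not pass the test (-0.02, SE 0.17, 95% interval -0.39 to 0.36, adjusted p = 0.936), so a difference of more than 0.39 in log2 lay outside the interval. The libraries do not mark the strand, and 27.2% of the exon bases of Tnfrsf18 overlap the antisense gene Gm16008, whose reads cannot be told apart from its own.

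Tnfsf14, or LIGHT, which binds the herpesvirus entry mediator Tnfrsf14 and the lymphotoxin beta receptor, was low and higher in mTEChi. It read 4.34, 2.34 and 3.24 CPM in WT mTEChi, 0.581, 0.605 and 0.600 CPM in WT mTEClo and 0.448 and 0.327 CPM in WT cTEC, with a log2 fold difference of 2.47 (SE 0.29, adjusted p = 7.26e-06). Tnfrsf14 itself read 23.2, 22.3 and 27.01 CPM in WT mTEChi, 13.4, 13.3 and 11.03 CPM in WT mTEClo and 12.6 and 10.8 CPM in WT cTEC. The mTEChi libraries were all above the others, by a log2 fold difference of 0.95 (SE 0.11, adjusted p = 6.52e-06), and cTEC and mTEClo overlapped.

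Of the B cell survival axis, both ligands and 2 of the 3 receptors were higher in mTEChi. Tnfrsf17, the plasma cell receptor BCMA, read 13.4, 11.8 and 13.8 CPM in WT mTEChi, 0.103, 0.361 and 0.0109 CPM in WT mTEClo and 0.291 and 0.610 CPM in WT cTEC. It had the largest log2 fold change among the members in this comparison (log2 fold difference of 6.33, SE 0.45, adjusted p = 9.91e-08) and did not overlap with the other populations. Tnfrsf13c, the BAFF receptor of B cells, read 12.5, 10.2 and 11.7 CPM in WT mTEChi, 0.251, 0.403 and 0.545 CPM in WT mTEClo and 0.526 and 0.741 CPM in WT cTEC, again with mTEChi apart (log2 fold difference of 4.83, SE 0.24, adjusted p = 3.58e-09). Tnfrsf13b, or TACI, which binds both ligands of this axis, ranged from 0.346 to 0.558 CPM in WT mTEChi and from 0.360 to 0.627 CPM in WT mTEClo and did not pass the test (0.05, SE 0.42, 95% interval -0.87 to 0.98).

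The log2 fold changes of both ligands were below 1. Tnfsf13b, the B cell activating factor BAFF, read 6.26, 6.04 and 6.16 CPM in WT mTEChi, 3.95, 3.10 and 2.87 CPM in WT mTEClo and 3.23 and 1.93 CPM in WT cTEC, with mTEChi above the rest by a log2 fold difference of 0.90 (SE 0.17, adjusted p = 3.60e-04). Tnfsf13, or APRIL, read 7.05, 6.74 and 8.68 CPM in WT mTEChi, 4.51, 3.67 and 3.96 CPM in WT mTEClo and 1.99 and 1.896 CPM in WT cTEC. The populations did not overlap, and Tnfsf13 was higher in mTEChi with a log2 fold difference of 0.89 (SE 0.16, adjusted p = 2.56e-04) and lower in cTEC than in mTEClo (-0.98, SE 0.25). Of the exon bases of Tnfsf13, 60.0% are shared with the read-through gene Tnfsfm13 and 13.5% with the antisense gene Tnfsf13os, so its counts are uncertain.

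Markers of blood cells moved with these receptors. All 6 B cell markers were higher in WT mTEChi than in WT mTEClo, their sum was 37.9 to 39.9 CPM against 12.9 to 16.5 CPM, and none of the 6 was at 0. Most of this sum in WT mTEClo was Cd79b, which averaged 13.8 CPM there and 17.4 CPM in WT mTEChi. Taken marker by marker, the 6 log2 fold changes had their median at 4.21, so the sum understates the rise of the list. All 10 dendritic cell and macrophage markers were higher as well, at 538 to 559 CPM against 65.7 to 68.7 CPM in sum, and 5 of 10 thymocyte markers, at 122 to 186 CPM against 39.7 to 76.2 CPM. All 8 tuft cell markers were lower in mTEChi, at 411 to 559 CPM against 2420 to 2590 CPM. In KO libraries all 6 B cell markers and all 10 dendritic cell and macrophage markers were likewise higher in mTEChi, with sums of 36.2 to 38.8 CPM and 546 to 567 CPM there. Their part in the results on the members was not tested.

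The members of the death receptor group went in both directions. Tnfrsf1a, described above, read 58.1, 59.8 and 62.3 CPM in WT mTEChi, 218, 222 and 208 CPM in WT mTEClo and 241 and 249 CPM in WT cTEC. It was lower in mTEChi without overlap (log2 fold difference of -1.84, SE 0.06, adjusted p = 7.49e-11) and higher in cTEC than in mTEClo by a small amount (0.25, SE 0.07, adjusted p = 0.0171). Tnfrsf1b, the TNF receptor without a death domain, read 36.7, 39.3 and 38.5 CPM in WT mTEChi, 24.2, 21.9 and 20.4 CPM in WT mTEClo and 21.7 and 20.7 CPM in WT cTEC. In contrast to Tnfrsf1a it was highest in mTEChi (log2 fold difference of 0.79, SE 0.08, adjusted p = 2.07e-06) and overlapped between the other populations.

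Tnfsf10, the death ligand TRAIL, read 45.2, 47.4 and 40.4 CPM in WT mTEChi, 172, 172 and 179.9 CPM in WT mTEClo and 82.98 and 92.97 CPM in WT cTEC. The populations did not overlap, with mTEClo highest and mTEChi lowest (log2 fold difference of -1.97, SE 0.07, adjusted p = 1.67e-10). Tnfrsf10b, the death receptor for TRAIL in the mouse, read 62.6, 61.1 and 60.7 CPM in WT mTEChi, 20.4, 19.7 and 19.7 CPM in WT mTEClo and 21.2 and 13.4 CPM in WT cTEC. The receptor was higher in mTEChi where its ligand was lower, with a log2 fold difference of 1.63 (SE 0.06, adjusted p = 3.36e-10). Tnfrsf22, a mouse decoy receptor for TRAIL without a death domain, read 1.54, 2.08 and 1.404 CPM in WT mTEChi, 6.803, 7.07 and 7.06 CPM in WT mTEClo and 5.62 and 5.23 CPM in WT cTEC. It was lower in mTEChi (log2 fold difference of -2.04, SE 0.19, adjusted p = 9.72e-07), as was the neighbouring decoy receptor Tnfrsf23, at 11.0 to 13.7 CPM against 21.4 to 24.4 CPM (-0.87, SE 0.10). Their transcripts are 91.7% identical over 1451 bases, so reads may have been split between them.

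Tnfrsf21, the death receptor DR6, read 32.7, 30.5 and 36.3 CPM in WT mTEChi, 58.5, 60.3 and 61.2 CPM in WT mTEClo and 30.2 and 32.2 CPM in WT cTEC. It was highest in mTEClo, with a log2 fold difference of -0.85 (SE 0.07, adjusted p = 4.56e-07), and mTEChi and cTEC overlapped. Tnfsf15, the ligand TL1A, read 17.8, 20.5 and 18.4 CPM in WT mTEChi, 6.18, 4.61 and 6.38 CPM in WT mTEClo and 6.04 and 3.92 CPM in WT cTEC, and was higher in mTEChi (log2 fold difference of 1.73, SE 0.13, adjusted p = 2.12e-07). Its receptor Tnfrsf25, or DR3, was lower there, at 0.882 to 1.12 CPM against 2.56 to 3.09 CPM in WT mTEClo (-1.47, SE 0.23). Tnfrsf26, a mouse receptor next to Tnfrsf22 and Tnfrsf23, was higher in mTEChi at 1.60 to 2.23 CPM against 0.350 to 0.578 CPM (2.18, SE 0.32).

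Of the remaining members, Tnfrsf12a, the TWEAK receptor Fn14 that epithelia induce on injury, read 10.3, 8.65 and 10.9 CPM in WT mTEChi, 56.0, 49.5 and 50.9 CPM in WT mTEClo and 32.5 and 37.3 CPM in WT cTEC. The populations did not overlap, and a log2 fold difference of -2.39 (SE 0.10, adjusted p = 6.00e-10) was the most negative among the members. Its ligand Tnfsf12, or TWEAK, was also lower, at 9.93 to 12.0 CPM in WT mTEChi against 14.6 to 17.2 CPM in WT mTEClo (-0.57, SE 0.11), with 48.3% of its exon bases shared with Tnfsfm13. Tnfrsf19, the receptor TROY of epithelial and neural progenitors, read 53.5 and 53.5 CPM in WT cTEC, 8.35, 8.41 and 8.82 CPM in WT mTEClo and 14.6, 13.8 and 13.1 CPM in WT mTEChi. It was the member that stood out in cTEC, with a log2 fold difference of 2.72 (SE 0.09, adjusted p = 5.38e-07) against mTEClo and a log2 fold difference of 1.95 (SE 0.09, adjusted p = 3.87e-06) against mTEChi, and was also higher in mTEChi than in mTEClo by 0.70 (SE 0.10).

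WT cTEC differed from WT mTEClo in 12 members, 2 higher and 10 lower, where 44.9% of all genes were called. Called higher were 7.14% of members and 20.9% of all genes, and called lower 35.7% and 24.1%. The 2 higher members were Tnfrsf19 and Tnfrsf1a. By the same 2-fold rule, added after the data were seen, Tnfrsf8, Tnfrsf9, Tnfsf9, Tnfrsf25 and Tnfsf8 were lower (17.9% of members, against 13.5% of all genes) and 1 member, or 3.57%, was higher (against 5.69%). Without mTEClo WT replicate 1 the count was 7 of 27 members, where 5699 of 16948 genes were called. From WT mTEChi, WT cTEC differed in 20 members, 5 higher and 15 lower, where 74.3% of all genes were called. Called higher in cTEC were 17.9% of members and 30.8% of all genes, and called lower 53.6% and 43.5%. At least 2-fold higher in cTEC were Tnfrsf1a, Tnfrsf19, Tnfrsf12a and Tnfrsf22 (14.3% of members, against 12.8% of all genes). At least 2-fold lower were 14 members (50.0%, against 35.4%), among them Tnfrsf9 (-5.60, SE 0.34), Tnfrsf17 (-4.84, SE 0.35), Tnfsf9 (-4.63, SE 0.23) and Tnfrsf8 (-4.31, SE 0.52). These comparisons share libraries with the comparison of mTEChi and mTEClo, so their values stand side by side and do not back each other. Library totals moved the median of all genes between WT cTEC and WT mTEChi from -0.24 to -0.42.

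Markers of other cells differed between the same populations. Against WT mTEClo, all 8 tuft cell markers were lower in WT cTEC (391 to 458 CPM in sum against 2420 to 2590 CPM), while 4 of 6 fibroblast and pericyte markers (947 to 1180 CPM against 263 to 322 CPM) and 5 of 10 thymocyte markers (80.3 to 113 CPM against 39.7 to 76.2 CPM) were higher. Against WT mTEChi, 9 of 10 dendritic cell and macrophage markers were lower in WT cTEC (39.6 to 71.1 CPM in sum against 538 to 559 CPM). So were 5 of 6 B cell markers (2.33 to 4.54 CPM against 37.9 to 39.9 CPM). Of 8 tuft cell markers 4 were lower and 1 higher, with sums that overlapped (391 to 458 CPM against 411 to 559 CPM). Of 6 fibroblast and pericyte markers 3 were higher and 2 lower. In the sums for WT cTEC, 1 dendritic cell and macrophage marker and 0 of the other markers listed here were at 0. Their part in the results on the members was not tested.

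The KO libraries, which share none with the WT ones, gave the same direction between mTEChi and mTEClo for every member called in WT. Again 26 of 28 members were called, 18 higher and 8 lower, where 78.4% of all 19344 genes tested were called. At least 2-fold, 13 were higher and 5 lower, against 32.8% and 12.1% of all genes. The same 26 members were called in both genotypes in the same direction, as were 75.0% of the 19068 genes tested in both. Tnfrsf9 read 93.97, 91.1 and 88.5 CPM in KO mTEChi and 5.46, 5.598 and 5.18 CPM in KO mTEClo (log2 fold difference of 4.09, SE 0.08, adjusted p = 5.95e-10), and Tnfsf9 read 34.9, 40.6 and 36.03 CPM and 3.07, 2.78 and 3.495 CPM (3.59, SE 0.12). Tnfsf10 read 42.99, 42.2 and 43.6 CPM in KO mTEChi and 184, 185 and 175 CPM in KO mTEClo (-2.06, SE 0.07). All of these values repeat the WT order without overlap. With library totals in place of TMM, the median of all genes moved from 0.08 to 0.31, and 9552 genes were called higher and 5006 lower in place of 8162 and 7002.

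The costimulatory and B cell receptors of the KO libraries had the WT order too. Tnfrsf8 read 55.4, 82.2 and 78.96 CPM in KO mTEChi against 13.9, 13.5 and 11.8 CPM in KO mTEClo (2.49, SE 0.15), and Tnfrsf4 14.9, 14.96 and 12.9 CPM against 1.75, 1.72 and 1.67 CPM (3.07, SE 0.14). Tnfrsf17 read 12.6, 15.3 and 13.9 CPM against 0.397, 0.541 and 0.288 CPM (5.11, SE 0.23), and Tnfrsf13c 11.3, 10.9 and 10.5 CPM against 0.397, 0.260 and 0.169 CPM (5.31, SE 0.27). In each of these 4 receptors the KO mTEChi libraries lay apart from the KO mTEClo ones. Tnfrsf10b read 65.3, 60.02 and 61.3 CPM against 21.5, 15.6 and 20.01 CPM (1.73, SE 0.11), and Tnfsf15 15.2, 18.9 and 20.2 CPM against 6.604, 5.51 and 6.55 CPM (1.56, SE 0.14). Tnfrsf14 read 20.2, 25.9 and 26.9 CPM against 9.998, 8.98 and 12.2 CPM, a log2 fold difference of 1.25 (SE 0.15). These 3 members were likewise higher in mTEChi in every library.

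The members lower in mTEChi were lower there without Psmb11 as well. Tnfrsf1a read 62.6, 64.9 and 63.4 CPM in KO mTEChi against 231, 233 and 242 CPM in KO mTEClo (-1.87, SE 0.07), Tnfrsf12a 9.19, 10.3 and 8.85 CPM against 57.7, 71.2 and 59.4 CPM (-2.72, SE 0.11) and Tnfrsf22 1.56, 1.33 and 1.98 CPM against 6.27, 6.03 and 8.45 CPM (-2.06, SE 0.22). Tnfrsf21 read 38.7, 36.5 and 33.4 CPM against 66.8, 54.6 and 65.7 CPM (-0.77, SE 0.09). None of these 4 overlapped between the populations. Tnfsf13 (7.33, 8.35 and 8.31 CPM against 4.97, 3.52 and 3.98 CPM), Tnfsf13b (5.38, 6.14 and 5.94 against 3.64, 2.74 and 4.39) and Tnfrsf19 (12.4, 15.2 and 14.7 against 8.04, 8.002 and 7.15) were again higher in mTEChi by less than 2-fold, as was Tnfrsf1b (39.7, 38.4 and 39.1 against 19.8, 21.99 and 21.98). Of the lower expressed ligands, Tnfsf4 read 5.46, 4.32 and 4.23 CPM against 0.129, 0.0801 and 0.288 CPM (4.83, SE 0.40), Tnfsf14 2.16, 2.34 and 2.96 CPM against 0.867, 0.641 and 0.536 CPM (1.89, SE 0.29) and Tnfsf18 2.75, 3.42 and 3.35 CPM against 2.09, 2.07 and 1.29 CPM (0.82, SE 0.25). None of these 3 ligands overlapped between the KO populations. Tnfrsf18 did overlap, at 3.34, 3.33 and 2.65 CPM against 3.99, 5.43 and 3.25 CPM, and did not pass the test (-0.43, SE 0.23).

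For the 6 members with low levels or small differences, the KO values are given as ranges. Tnfsf12 spanned 9.91 to 11.4 CPM in KO mTEChi and 18.5 to 18.9 CPM in KO mTEClo (-0.78, SE 0.10), Tnfrsf23 12.7 to 14.7 CPM and 22.9 to 27.4 CPM (-0.91, SE 0.11) and Tnfrsf25 0.705 to 1.45 CPM and 2.04 to 2.97 CPM (-1.32, SE 0.32). These 3 were lower in mTEChi. Tnfrsf26 spanned 1.496 to 2.49 CPM and 0.347 to 0.541 CPM (2.21, SE 0.33) and Tnfsf8 2.74 to 3.43 CPM and 0.00922 to 0.240 CPM (4.71, SE 0.61), both higher in mTEChi. Tnfrsf13b spanned 0.555 to 0.676 CPM and 0.280 to 0.461 CPM without passing the test (0.81, SE 0.39). In WT cTEC, Tnfsf12 spanned 13.5 to 13.8 CPM, Tnfrsf23 13.9 to 15.8 CPM, Tnfrsf25 0.750 to 1.55 CPM, Tnfrsf26 0 to 1.34 CPM and Tnfrsf13b 0.174 to 0.201 CPM.

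In KO cTEC the calls depended on single libraries. KO cTEC differed from KO mTEClo in 2 members, where 6.19% of all genes were called (577 higher and 500 lower, or 756 and 376 by library totals): Tnfrsf19 was higher (2.60, SE 0.34, adjusted p = 0.0154 by edgeR) and Tnfsf10 lower (-0.77, SE 0.10, adjusted p = 0.0151). Tnfrsf19 read 28.2 and 59.02 CPM in KO cTEC, above every mTEC library, and Tnfsf10 109 and 91.7 CPM. The count was 20 without cTEC KO replicate 1, where 9835 of 17714 genes were called, and 9 without cTEC KO replicate 2, where 4234 of 18137 were. It was 0 without any 1 of the 3 mTEClo KO replicates, where 3 to 114 genes were called. From KO mTEChi, KO cTEC differed in 15 members, 8 higher and 7 lower, where 46.7% of all genes were called. The count was 26 without cTEC KO replicate 1 (16074 of 19955 genes called), 25 without replicate 2 (14419 of 20039) and 5 without mTEChi KO replicate 1, 2 or 3 (5908 to 6267 genes called). The 7 lower members were Tnfrsf9, Tnfsf9, Tnfrsf8, Tnfrsf4, Tnfrsf10b, Tnfsf13 and Tnfsf15, each also lower in WT cTEC than in WT mTEChi. Among the 8 higher ones was Tnfrsf18 (1.49, SE 0.35, adjusted p = 0.0216), which read 6.96 and 10.6 CPM in KO cTEC against 3.34, 3.33 and 2.65 CPM in KO mTEChi.

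Loss of Psmb11 gave no called member in any population. In cTEC, 0 of 27 members tested passed edgeR's test, where 0.0% of all 16423 genes were called, although 3 members and 2104 genes had an unadjusted p under 0.05. DESeq2 called 1 member and voom with a weight per library 1, in both cases Tnfrsf9 (adjusted p = 0.0163 and 0.0364). The share of members was 3.7% for both, against 5.1% of all genes by DESeq2 and 3.11% by voom. Without cTEC KO replicate 1 edgeR called 5 members, Tnfrsf9, Tnfrsf1b, Tnfrsf18 and Tnfsf13b higher and Tnfrsf12a lower, beside 3501 of 16758 genes (20.9%). Without cTEC KO replicate 2 it called 3, Tnfrsf8 and Tnfrsf21 higher and Tnfrsf19 lower, beside 1083 of 17627 genes (6.14%). Tnfsf8 was not tested for its low counts. In mTEClo 0 of 28 passed, where 0.00586% of genes (1 gene) were called. An unadjusted p under 0.05 was found for 5 members and for 2141 of 17073 genes. DESeq2 called 1 member there, beside 318 of 14088 genes, and voom 0 members and 6 genes. In mTEChi 0 of 28 passed, where 0.0051% of genes (1 gene) were called, and 0 by DESeq2 or voom. An unadjusted p under 0.05 was found there for 1 member and for 822 of 19614 genes. The 95% interval of the log2 fold change lay within -1 and 1 for 27 members in mTEChi, 22 in mTEClo and 2 in cTEC, so a 2-fold change lay outside the interval for nearly all members in mTEChi and for few in cTEC.

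**Figure D4:**
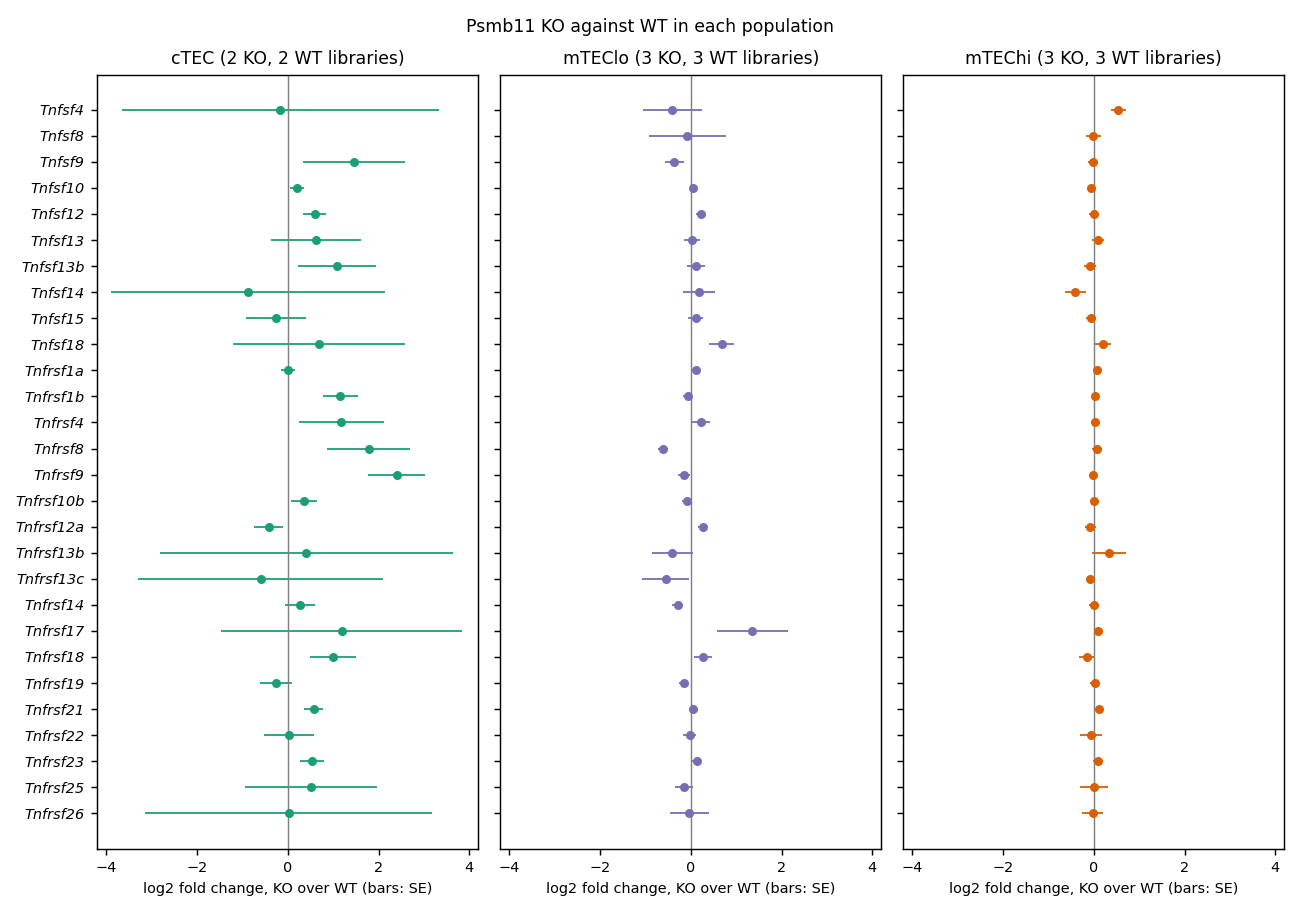
Log2 fold change of KO over WT for each member in cTEC (2 against 2 libraries), mTEClo and mTEChi (3 against 3 each), with bars for the SE. Points in mTEChi run from -0.41 (Tnfsf14) to 0.54 (Tnfsf4), while those in cTEC run from -0.87 to 2.40 (Tnfrsf9) with far wider bars, and Tnfsf8 has no point in cTEC.

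In cTEC, Tnfrsf9 had the smallest p among the members. It read 8.96 and 10.5 CPM in KO and 2.69 and 1.11 CPM in WT, a log2 fold difference of 2.40 (SE 0.64, 95% interval 0.88 to 3.91, unadjusted p = 0.00757, adjusted p = 0.218 by edgeR). Both KO libraries were above both WT ones. Next were Tnfrsf1b, at 28.8 and 63.1 CPM against 21.7 and 20.7 CPM (1.15, SE 0.39, adjusted p = 0.302 by edgeR), and Tnfrsf21, at 52.04 and 39.7 CPM against 30.2 and 32.2 CPM (0.57, SE 0.20, adjusted p = 0.326 by edgeR). The KO libraries were above the WT ones here too, with Tnfrsf1b far higher in replicate 2 than in replicate 1. In all, 7 of 27 members were higher in both KO libraries than in both WT ones and 0 were lower. Of all genes 45.2% did not overlap between genotypes, counted in both directions, which is a larger share than of the members. Of the 27 log2 fold changes 21 were above 0, which was not counted over all genes. The median was 0.51 over the members and 0.01 over all genes, and without cTEC KO replicate 1 it was 0.13 over the members and -0.10 over all genes. The other members without overlap were Tnfrsf10b, Tnfrsf18, Tnfrsf23 and Tnfsf12.

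Other cTEC members differed between the KO replicates. Tnfrsf8 read 20.1 and 3.71 CPM in KO cTEC, Tnfsf9 7.35 and 1.18 CPM, Tnfsf13b 2.59 and 7.95 CPM and Tnfrsf12a 34.8 and 17.4 CPM. Of these, replicate 1 was the higher library for Tnfrsf8, Tnfsf9 and Tnfrsf12a and replicate 2 for Tnfsf13b. Tnfrsf1a read 222 and 262 CPM, Tnfrsf10b 22.4 and 21.3 CPM, Tnfrsf14 16.6 and 11.3 CPM and Tnfrsf22 4.99 and 5.85 CPM. In these 4 the replicates differed by less than 2-fold. Tnfrsf4 read 2.82 and 6.63 CPM, Tnfsf13 4.01 and 1.98 CPM, Tnfsf15 4.62 and 3.58 CPM and Tnfsf18 3.11 and 0.126 CPM. Tnfrsf13c, Tnfrsf17, Tnfsf14 and Tnfsf4 were at 0 counts in replicate 2 and at 0.859, 2.12, 0.429 and 0.537 CPM in replicate 1.

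Markers differed between the same cTEC libraries. Aire read 107.0 and 44.2 CPM in KO cTEC against 13.7 and 10.6 CPM in WT cTEC, summed tuft cell markers 817 to 1230 CPM against 391 to 458 CPM, and summed B cell markers 12.5 to 12.9 CPM against 2.33 to 4.54 CPM. Summed dendritic cell and macrophage markers were 93.5 to 120.0 CPM against 39.6 to 71.1 CPM and summed cortical markers without Psmb11 3670 to 4420 CPM against 5300 to 6450 CPM. None of these markers was called by edgeR, but it called 0 of all 16423 genes in this comparison. The lack of a call therefore does not show that the markers were alike. Their part in the values of the members was not tested.

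In mTEClo, Tnfrsf8 had the smallest p. It read 13.9, 13.5 and 11.8 CPM in KO and 20.7, 21.2 and 17.7 CPM in WT, with every KO library below every WT one, a log2 fold difference of -0.62 (SE 0.10, 95% interval -0.84 to -0.39, unadjusted p = 8.54e-05, adjusted p = 0.0883 by edgeR). DESeq2 called it (adjusted p = 7.23e-05), and so did edgeR with no filter on low counts (adjusted p = 0.0426). In mTEChi its value was 0.07 (SE 0.12), and the difference between the populations' KO effects, 0.69 (SE 0.18, adjusted p = 0.759), did not pass. Next in mTEClo were Tnfrsf12a, at 57.7, 71.2 and 59.4 CPM in KO (0.26, SE 0.09, adjusted p = 0.319 by edgeR), and Tnfsf18, at 2.09, 2.07 and 1.29 CPM in KO (0.68, SE 0.28, adjusted p = 0.357 by edgeR), both above every WT library. Without overlap between genotypes were 5 members higher in KO (Tnfrsf12a, Tnfrsf1a, Tnfrsf4, Tnfsf12 and Tnfsf18) and 3 lower (Tnfrsf8, Tnfrsf9 and Tnfrsf19), where 19.4% of all genes did not overlap. Reads in no gene were 13.7% to 17.4% in KO mTEClo and 17.6% to 19.1% in WT mTEClo, and summed tuft cell markers 1650 to 2220 CPM and 2420 to 2590 CPM. The part of either in the values of the members was not tested.

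In mTEChi, Tnfsf4 had the smallest p. It read 5.46, 4.32 and 4.23 CPM in KO, all above the WT libraries, a log2 fold difference of 0.54 (SE 0.16, unadjusted p = 0.00433, adjusted p = 0.999 by edgeR). Tnfsf14 read 2.16, 2.34 and 2.96 CPM (-0.41, SE 0.22, adjusted p = 0.999 by edgeR) and Tnfrsf21 38.7, 36.5 and 33.4 CPM (0.12, SE 0.08, adjusted p = 0.999 by edgeR), both overlapping with WT. Tnfsf4 and Tnfrsf1a were the 2 members without overlap between genotypes, where 8.94% of all genes did not overlap. Over the 4 medullary groups, 0 of 28 members differed in their KO effect between mTEChi and mTEClo by edgeR, DESeq2 or voom, where edgeR called 0.0101% of genes, and 2 members had an unadjusted p under 0.05.

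Genes around the members were described from lists of the pathway, and their counts are read against the 43.0% of all genes called higher and the 37.9% called lower in WT mTEChi. Of 7 superfamily ligands named otherwise, 6 were higher in WT mTEChi and 1 lower, led by Tnf (3.50, SE 0.16), lymphotoxin alpha Lta (5.86, SE 0.30) and the CD27 ligand Cd70 (4.66, SE 0.24). Of 8 further receptors 5 were higher and 3 lower, led by Cd40 (3.16, SE 0.07), which drives mTEC maturation, the ectodysplasin receptor Edar (-2.24, SE 0.07) and the death receptor Fas (1.58, SE 0.06). Cd40 averaged 221 ± 6.53 CPM in WT mTEChi and 24.8 ± 2.10 CPM in WT mTEClo (SD, n = 3 each). Of 21 adaptors and death signalling genes 6 were higher and 8 lower, led by the caspase-8 inhibitor Cflar (1.42, SE 0.06), the ubiquitin ligase Traf6 (1.29, SE 0.05) and the inhibitor of apoptosis Birc3 (1.01, SE 0.05). Among the 8 lower ones were the TRAF adaptor Traf5 (-2.27, SE 0.12) and the NF-kB inhibitor Tnfaip3 (-1.70, SE 0.10), named here after their values were seen. Of 13 NF-kB factors and regulators 7 were higher and 3 lower, led by the inhibitor Nfkbie (1.17, SE 0.05) and the NF-kB subunits Rel (1.48, SE 0.07) and Nfkb2 (1.06, SE 0.06). Mean levels were lower in WT mTEChi than in WT mTEClo for the subunits Nfkb1 (236 against 310 CPM) and Rela (99.4 against 152 CPM). So was that of the regulator Bcl3 (36.5 against 88.2 CPM), and these genes were named after their values were seen. The medians of the pathway lists, in the order given, were 2.64, 0.94, -0.01 and 0.81, against 0.06 over all genes. In KO against WT, edgeR called 0 of 47 list genes tested in cTEC, 0 of 48 in mTEClo and 0 of 49 in mTEChi. An unadjusted p under 0.05 was found for 8, 3 and 0 of them. Over all genes it was found for 2104 of 16423, 2141 of 17073 and 822 of 19614. DESeq2 called 3 list genes in cTEC and voom 2, among them Traf1 and Relt by both, beside 5.1% and 3.11% of all genes. Neither called any list gene in mTEClo or mTEChi.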

How the data were processed

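The authors deposited a table of raw read counts per gene symbol and a table of RPKM, which scales reads to gene length and to the library. The tools named are HTSeq 0.5.4p1 and CASAVA 1.8.2, and the build mm10, per the submitters' processing notes. The aligner and the annotation are not given in the sources used here. Library preparation followed the TruSeq RNA Sample Prep Kit v2, which does not mark the strand, per the labels' protocols, so overlapping and antisense genes cannot be told apart. Between 13.7% and 30.4% of reads per library fell in no gene and 0.541% to 0.887% were ambiguous, and both were left out. A floor of 3 counts is 0.019 to 0.043 CPM.

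Each comparison was fitted to the libraries of its own groups by edgeR 4.0.16 in R 4.3.3 (TMM scaling, filterByExpr with a minimum count of 10, quasi-likelihood test, Benjamini-Hochberg adjustment over all genes tested, threshold 0.05). The KO effects in mTEChi and mTEClo were compared in 1 fit of the 12 medullary libraries. CPM use TMM-scaled library sizes. DESeq2 1.42.0 and limma 3.58.1 (voom) gave alternatives, and the edgeR fits of KO against WT and between WT populations were tested on simulated data. Levels between genes used the authors' RPKM. No comparison met the rule set for pairing libraries by the labels' replicate numbers, so the main fits used no block. The members and lists were chosen with earlier results of these data known. Values in every library are given for members called in any comparison between groups by 2-fold or more either way whose higher group averaged 5 CPM or more, and for the 3 members with the smallest p in each KO comparison. These were 22 members, and the other 6 are given by range. For each pathway list the 3 called genes with the smallest p are named.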

Additional observations from a re-analysis of the deposited data

Results flagged for a closer look

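Tnfrsf9, the receptor 4-1BB, had its KO values on opposite sides of its WT values in 2 populations, without passing the test in either. In cTEC both KO libraries lay above both WT libraries, a log2 fold difference of 2.40 (SE 0.64, 95% interval 0.88 to 3.91, adjusted p = 0.218 by edgeR), where 45.2% of all genes did not overlap between genotypes. In mTEClo all 3 KO libraries lay below all 3 WT libraries, a log2 fold difference of -0.15 (SE 0.13, 95% interval -0.43 to 0.14, adjusted p = 0.688 by edgeR), where 19.4% of all genes did not overlap. The difference between the populations was not tested.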

How the results depend on the processing

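WT mTEChi against WT mTEClo gave 26 members and 24 to 26 under the alternatives, and the KO comparison 26 and 23 to 27, with 18 past 2-fold in both. KO against WT gave 0 members in mTEChi throughout, and so did the difference of KO effects. In mTEClo it gave 0, but 1 by DESeq2 and 1 with no filter on low counts, and 0 with any library left out. In cTEC it gave 0, but 8 in 1 fit of all 16 libraries, 1 by DESeq2, 1 by voom, 2 with the replicate block and 0 to 5 with 1 library left out, 5 without cTEC KO replicate 1 and 3 without replicate 2. WT cTEC against WT mTEClo gave 12, and 7 with the replicate block and 7 to 17 with 1 library left out. KO cTEC against KO mTEClo gave 2, but 9 in the fit of all 16 libraries, 7 by DESeq2, 4 with the replicate block and 0 to 20 with 1 library left out. KO cTEC against KO mTEChi gave 15, but 4 with the replicate block and 5 to 26 with 1 library left out. WT cTEC against WT mTEChi gave 20 and 17 to 23. The cause of these shifts was not tested. Where 1 cTEC library remained, it was assumed to vary like the other group. Among single members that met the rule for values in every library, 767 alternatives kept direction and side of the threshold, 12 passed it, 41 lost it and 0 reversed. This tally covers each such member only in the comparisons where it met the rule. The rule picked large changes or small p in these data, so few reversals say nothing of the other comparisons. Over all genes, KO against WT in cTEC called 0, but 4700 in the fit of all libraries, 821 by DESeq2, 383 with no filter, 718 with the replicate block, 511 by voom and 167 to 3501 with 1 library left out. In mTEClo it called 1, but 318 by DESeq2, 21 with no filter and 6 by voom, and in mTEChi 1, but 7 by DESeq2. KO cTEC against KO mTEClo called 1077, but 5993 in the fit of all libraries, 3313 by DESeq2 and 1041 with the replicate block. Called there were 7.14% of members and 6.19% of all genes in the main fit. The shares were 32.1% and 29.8% in the fit of all libraries and 14.3% and 5.99% with the block. KO cTEC against KO mTEChi called 9076, but 2534 with the replicate block. WT cTEC against WT mTEClo called 7735, or 44.9% of all genes, but 5957, or 34.6%, with the replicate block. No comparison met the rule for pairs, that 3 same-numbered pairs of libraries deviate together with a correlation over 0.1. Comparisons with cTEC have 2 pairs and could not meet it. In KO mTEChi against KO mTEClo 2 of 3 pairs were over 0.1. The check therefore does not settle whether the replicate numbers pair libraries. The member median of KO against WT in cTEC was 0.25 with the replicate block, against 0.51 without. Depth limits a level to a floor of 0.019 to 0.043 CPM, or 3 counts in a library.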
